A study of Homo sapiens and Mus musculus with 16 samples.

Results

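The nuclear-encoded subunits of the oxidative phosphorylation system were taken by symbol, as every gene whose name begins like a complex I subunit (NDUFA, NDUFB, NDUFC, NDUFS or NDUFV with a number), a complex III subunit (UQCR), a complex IV subunit (COX4 to COX8) or an ATP synthase subunit (ATP5). The rule found 77 of 22286 genes in the human table and 74 of 15881 in the mouse table. In human these were 37 genes of complex I, 10 of complex III, 12 of complex IV and 18 of complex V, and in mouse 36, 8, 13 and 17. The rule used no measured value.

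P-body-seq uses flow sorting of particles of GFP-tagged LSM14A, a core protein of P-bodies, and compares the RNA in them with RNA of the cytoplasm from which they were sorted. There were 16 libraries in 8 groups, with 2 P-body and 2 cytoplasm libraries for each of 4 cell types, and every cell line used expressed GFP-LSM14A. HEK293T, a human embryonic kidney line, and KH2, a mouse embryonic stem (ES) cell line kept in serum-LIF and labelled mESC, received the fusion from a lentivirus with the EF1a promoter. Liver bud progenitors and neurons at day 20 were both differentiated from the human ES line UCLA4, in which the fusion was integrated at AAVS1. HEK293T and mESC libraries were of total RNA (random primers, the Snap seq protocol), and liver bud progenitor and neuron libraries were of polyA RNA (SMART-Seq V4 Ultra with Nextera XT). Library kind and cell type therefore cannot be told apart whenever HEK293T or mESC is set beside the other cells. The study's reporting summary speaks of biological replicates for its sequencing, but the labels name no separate cultures, so the p-values measure the spread between 2 libraries per group, which may be technical.

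Oxidative phosphorylation couples the transfer of electrons from nutrients to oxygen, through complexes I to IV of the inner mitochondrial membrane, to ATP synthesis by complex V. A few hydrophobic core subunits are encoded by mitochondrial DNA, and all the others are made from nuclear mRNAs that are translated in the cytoplasm and imported. P-bodies are cytoplasmic condensates of translationally repressed mRNA, so the ratio of P-body to cytoplasm RNA sets an mRNA's share of the condensates' RNA against its share of the unsorted cytoplasm, which still holds P-bodies. Values below are CPM (counts scaled to a common library total) on TMM-scaled library sizes, and a change is log2 of P-body over cytoplasm, so a negative value means depletion from P-bodies.

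The ATP synthase c ring is the proton-driven rotor of complex V, and 3 nuclear genes, ATP5MC1, ATP5MC2 and ATP5MC3, encode the same mature c subunit. The last 77 codons of the 3 genes encode identical residues over 231 coding bases, and 50 of these 77 codons were not the same in all 3 genes. The residues before that stretch, 59 in ATP5MC1, 64 in ATP5MC2 and 65 in ATP5MC3, hold the mitochondrial import sequences. The 3 last coding exons are shown because one protein is written there in 3 RNA sequences whose distribution between P-bodies and cytoplasm was measured gene by gene. They are given 5′ to 3′ on the coding strand from hg38 with GENCODE 44 annotation, at chr17:48895655-48895766 on the + strand for ATP5MC1, chr12:53665317-53665428 on the - strand for ATP5MC2 and chr2:175178291-175178402 on the - strand for ATP5MC3. Each is the exonic coding part that ends before the stop codon, and capitals mark the 30 of 112 positions at which the 3 genes do not all have the same base.
ATP5MC1: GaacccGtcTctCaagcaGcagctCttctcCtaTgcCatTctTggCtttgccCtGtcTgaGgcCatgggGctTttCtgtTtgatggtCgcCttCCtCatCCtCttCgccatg
ATP5MC2: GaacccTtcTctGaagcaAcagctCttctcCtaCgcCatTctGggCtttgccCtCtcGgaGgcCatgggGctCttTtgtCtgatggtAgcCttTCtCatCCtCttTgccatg
ATP5MC3: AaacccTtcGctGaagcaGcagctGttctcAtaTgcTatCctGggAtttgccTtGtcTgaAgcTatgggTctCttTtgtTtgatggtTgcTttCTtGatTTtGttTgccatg
ATP5MC1 and ATP5MC2 shared 88.4% of these positions, and ATP5MC3 shared 78.6% with each of the other two. Across the whole identical stretch, the share of G or C at the last position of a codon was 63.6% in ATP5MC1, 61.0% in ATP5MC2 and 39.0% in ATP5MC3.

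Library totals ranged from 6368953 to 17972284 counts, so that 3 counts, taken as the floor of detection, corresponded to 0.167 to 0.471 CPM (counting error only, since these reads carry no molecular identifiers). Ribosomal RNA genes took 3.09% to 24.9% of the counts, and a smaller part in each cell type's P-body libraries than in its cytoplasm libraries. The summed CPM of 12 neuron markers was 11240 to 13970 in the 4 neuron libraries and 239 to 347 in the other human libraries. The summed CPM of 12 liver bud markers was 220 to 456 in the liver bud libraries, where none was at 0 and APOB and TTR led, but AFP stayed under 8 CPM. The HEK293T P-body libraries held 215 and 217 CPM of the same markers, and the neuron P-body libraries held 267 and 273 CPM, of which PROX1 alone gave 244 and 246. Neural progenitor and glial markers were higher in neuron P-bodies (837 and 783 CPM) than in neuron cytoplasm (379 and 387 CPM). Pluripotency markers summed to 552 to 769 CPM in liver bud libraries and 76.7 to 273 CPM in the other human libraries. Their list shares TBX3 with the liver bud markers and SOX2 with the neural progenitor markers. Whether the make-up of the cultures has a part in the values below was not tested, and in such bulk samples fewer cells of a type and less RNA per cell cannot be told apart. Spearman's rho between replicates, across genes, was 0.945 in neuron P-bodies and 0.986 to 0.993 in the other 7 groups.

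The subunit mRNAs were depleted from P-bodies in HEK293T cells, mESC and neurons, with the lowest sum ratio in HEK293T, and enriched in liver bud progenitors. Summed over all subunits, HEK293T P-bodies held 1907.7 and 1968.6 CPM and cytoplasm held 4708.3 and 4741.2, a ratio of 0.410. In mESC the sums were 1928.2 and 2064.7 in P-bodies and 2783.5 and 2752.7 in cytoplasm, a ratio of 0.721, and in neurons 1266.4 and 1321.0 in P-bodies and 1688.1 and 1757.0 in cytoplasm, a ratio of 0.751. The order was the opposite in liver bud progenitors, with 2474.9 and 2403.8 CPM in P-bodies and 1531.9 and 1531.2 in cytoplasm, a ratio of 1.59. The libraries of the fractions did not overlap in any of the 4 cell types. As a plain share of all counts, without TMM, the subunits took 0.231% and 0.226% of liver bud P-body libraries against 0.164% and 0.162% of cytoplasm, 0.182% and 0.189% of HEK293T P-body libraries against 0.491% and 0.498% of cytoplasm, 0.167% and 0.180% in mESC against 0.321% and 0.315%, and 0.133% and 0.141% in neurons against 0.156% and 0.170%.

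In HEK293T, 71 of 77 subunits passed the test as depleted and 0 as enriched (edgeR quasi-likelihood test, Benjamini-Hochberg adjusted p under 0.05), beside 22.8% of all genes depleted and 19.3% enriched. Their median log2 change was -1.39, against -0.01 over all genes tested. In mESC 50 of 74 were depleted and 1 enriched, with a median of -0.60 against -0.11 over all genes, of which 20.6% were depleted and 25.8% enriched. In neurons 23 of 77 were depleted and 2 enriched, with a median of -0.61 against 0.19 over all genes, of which 14.1% were depleted and 14.6% enriched. By contrast, 45 of 77 were enriched and 0 depleted in liver bud progenitors, with a median of 0.69 against -0.09 over all genes, of which 21.4% were enriched and 17.1% depleted. The neuron count depended on single libraries and the fit. It was 7 without cytoplasm replicate 2, 9 without cytoplasm replicate 1 and 10 with DESeq2. The split moved with the scaling. With library size in place of TMM, 3 subunits were enriched and 10 depleted in neurons, 0 and 69 in mESC, and 37 and 2 in liver bud progenitors.

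**Figure D1:**
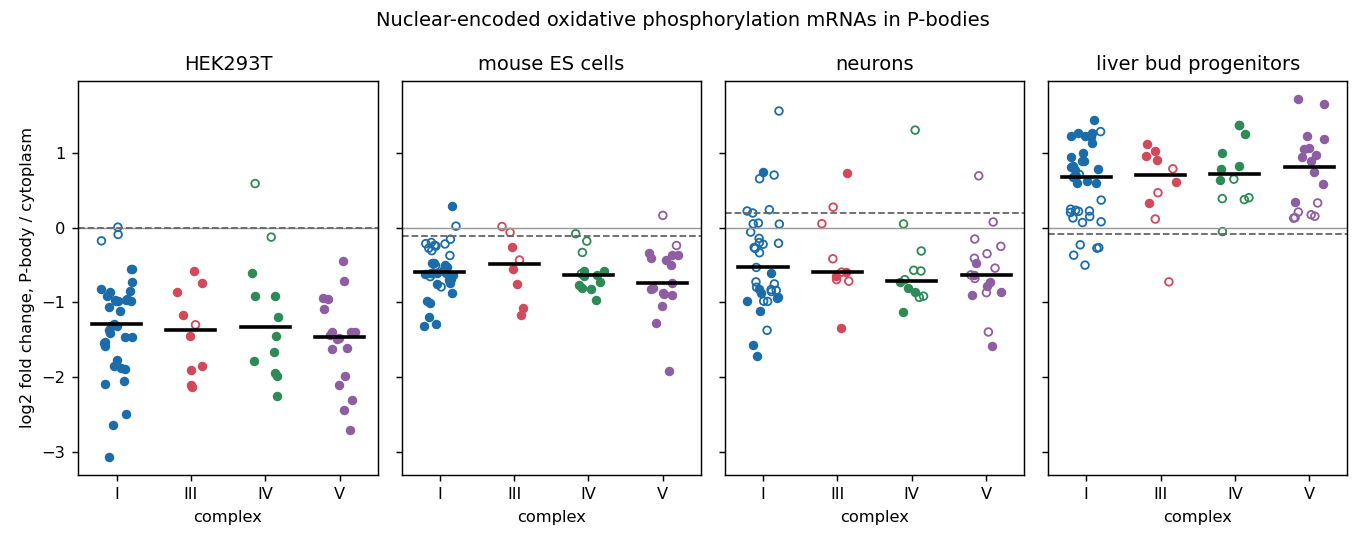
Log2 of P-body over cytoplasm for each subunit gene (1 point per gene), by complex and cell type, with the horizontal line at 0 for equal CPM in both fractions. Most HEK293T points lie below 0 and most liver bud points above it, in each of the 4 complexes.

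Among subunits with a mean of at least 20 CPM, where counting error is smaller, 45 of 48 were depleted in HEK293T (median -1.42), 25 of 33 in mESC (median -0.52) and 12 of 22 in neurons (median -0.60), while 23 of 30 were enriched in liver bud progenitors (median 0.77). Over all genes of that level, 2210 of 6498 were depleted in HEK293T (median 0.25), 1467 of 5862 in mESC (median 0.28) and 2280 of 6103 in neurons (median -0.16), and 3440 of 6447 were enriched in liver bud progenitors (median 0.33). All 4 libraries of a cell type were also compared without a test. Both P-body libraries were below both cytoplasm libraries for 74 of 77 subunits in HEK293T, 63 of 74 in mESC and 49 of 77 in neurons, where this held for 33.7%, 39.4% and 30.1% of all genes. Both liver bud P-body libraries were above both cytoplasm libraries for 58 of 77, beside 31.2% of all genes. Single genes followed the sums in most cases. For 62 of 77 human subunits the log2 change was lowest in HEK293T and highest in liver bud progenitors, with neurons between.

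By pattern of calls, 26 subunits were depleted in HEK293T, not called in neurons and enriched in liver bud progenitors, and 16 were depleted in HEK293T and neurons and enriched in liver bud progenitors. A further 22 were called, as depleted, in HEK293T alone of the human cell types, and 6 were depleted in HEK293T and neurons without a call in liver bud progenitors. The 7 others were UQCRB, NDUFS1, COX6A1 and NDUFA5, each with a pattern of its own, and 3 genes with no call in any human cell type. These patterns count calls, and an absent call is no evidence of an equal level. The shares of all genes with these patterns, or with the order of cell types given above, were not counted. Neither is therefore read as particular to the subunits.

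On the TMM scale each of the 4 complexes had the direction of the whole set in each cell type, but as plain shares of counts this did not hold for complex I in neurons. In HEK293T the ratio of summed CPM was 0.479 for complex I, 0.391 for complex III, 0.399 for complex IV and 0.365 for complex V. In mESC it was 0.733, 0.819, 0.667 and 0.711 in the same order. In neurons it was 0.895 for complex I, 0.833 for complex III and 0.634 for each of complexes IV and V, and in liver bud progenitors 1.57, 1.58, 1.78 and 1.57. The neuron complex I libraries stood closest together, with 556 and 573 CPM in P-bodies and 615 and 646 in cytoplasm, without overlap. As plain shares of counts they did overlap, at 0.0584% and 0.0612% in P-bodies and 0.0567% and 0.0625% in cytoplasm, as did neuron complex III, at 0.0159% and 0.0170% in P-bodies and 0.0169% and 0.0183% in cytoplasm. These totals include ribosomal RNA genes, which took 13.4% and 11.4% of the neuron P-body counts and 24.9% and 21.5% of the cytoplasm counts. Their part in the overlap was not tested. A few abundant genes carry the sums by complex, and NDUFS1 alone gave 196 and 212 of the neuron P-body CPM for complex I.

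**Figure D2:**
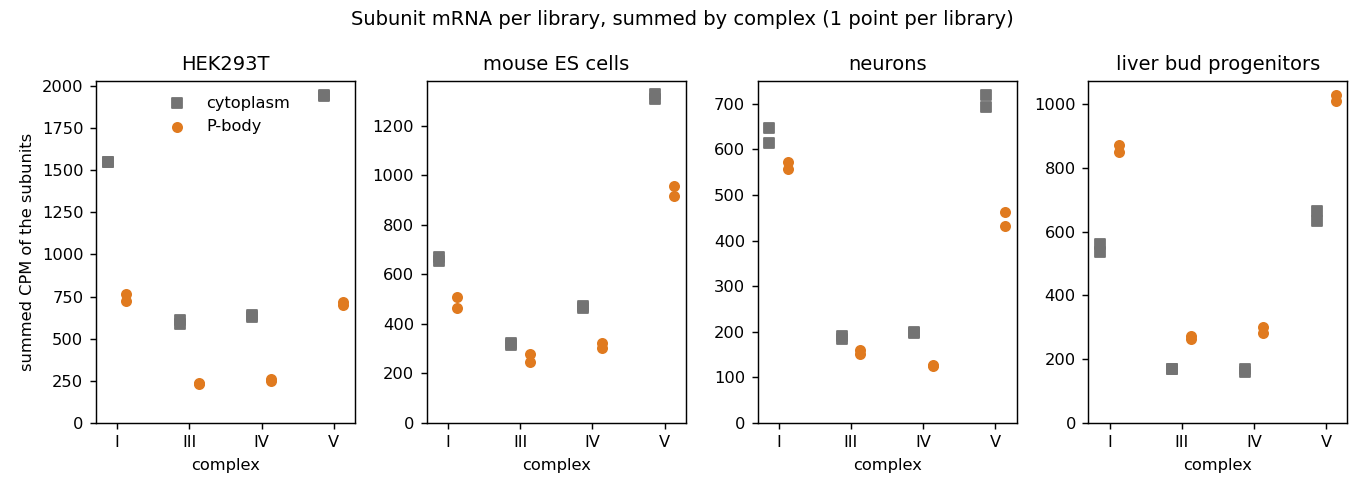
Summed CPM of the subunits of each complex (vertical axis, 1 point per library) in cytoplasm (grey squares) and P-bodies (orange circles) of the 4 cell types. Orange points sit below grey points in HEK293T, mouse ES cells and neurons for all 4 complexes, and above them in liver bud progenitors.

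Complex I takes electrons from NADH, and its core subunits carry the flavin and iron-sulphur clusters. In HEK293T 34 of its 37 members were depleted and 0 enriched, with a median log2 change of -1.29. In mESC 1 of 36 was enriched and 21 were depleted (median -0.59), in neurons 1 was enriched and 9 depleted (median -0.53), and in liver bud progenitors 20 were enriched and 0 depleted (median 0.67). A smaller part of the 7 core subunits than of the accessory ones was called in liver bud progenitors and mESC. In HEK293T 6 of 7 core subunits and 27 of 29 accessory ones were depleted. In neurons 1 core subunit was depleted and 1 enriched, and 8 of 29 accessory subunits were depleted. Of the core subunits 2 were enriched in liver bud progenitors, with a median of 0.07, whereas 17 of 29 accessory subunits were enriched there, with a median of 0.71. In mESC 1 core subunit was depleted and 1 enriched (median -0.22), and 19 of 28 accessory subunits were depleted (median -0.60). The difference between core and accessory subunits was not tested.

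NDUFS1, the largest iron-sulphur subunit of complex I, was not depleted in any cell type. In HEK293T it had 135 and 145 CPM in P-bodies and 141 and 138 in cytoplasm, which overlapped, and its log2 ratio was 0.01 ± 0.07 (SE, edgeR adjusted p = 0.965). In neurons it had 196 and 212 CPM in P-bodies and 129 and 116 in cytoplasm, an enrichment of 0.74 ± 0.11 (edgeR adjusted p = 0.000141). The liver bud values were 250 and 267 CPM in P-bodies and 148 and 156 in cytoplasm, an enrichment of 0.77 ± 0.07 (edgeR adjusted p = 1.31e-15). Mouse Ndufs1 had 38.2 and 36.6 CPM in P-bodies and 27.6 and 33.7 in cytoplasm, and its log2 ratio was 0.29 ± 0.11 (edgeR adjusted p = 0.0399). P-body libraries were the higher ones in neurons and mESC, as in liver bud progenitors, although the mouse call was lost under other settings and its sign reversed with library size scaling. The annotated NDUFS1 transcript, of 11660 bases, was the longest among the human members.

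NDUFV1, the flavin-binding subunit that oxidises NADH, was depleted in HEK293T, with 9.53 and 10.6 CPM in P-bodies and 24.0 and 19.7 in cytoplasm (-1.12 ± 0.16, edgeR adjusted p = 1.49e-08). It was not called elsewhere, at -0.80 in neurons, -0.23 in liver bud progenitors and -0.31 in mESC. Among accessory subunits of at least 20 CPM, NDUFB2 went from 19.7 and 17.8 CPM in HEK293T P-bodies against 77.0 and 82.6 in cytoplasm to 44.7 and 35.5 in liver bud P-bodies against 17.6 and 15.8 in cytoplasm. That was a log2 change of -2.09 ± 0.10 in HEK293T and of 1.27 ± 0.14 in liver bud progenitors, both called. NDUFA12 and NDUFB9 were the least depleted called members of at least 20 CPM in HEK293T, at -0.55 each. NDUFS5 (-0.87 ± 0.17) and NDUFB8 (-0.82 ± 0.20) were among the 4 lowest in neurons of the called members of at least 20 CPM without overlap. Other members outside that filter had lower values, such as NDUFB10 at -1.71. NDUFA4, named for complex I but found with complex IV, was depleted in HEK293T (-1.85) and mESC (-0.68), enriched in liver bud progenitors (0.59) and not called in neurons (-0.27).

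Among all 77 genes, NDUFB5 had the lowest HEK293T value (chosen after its values were seen), with 24 and 35 counts in P-bodies and 180 and 195 in cytoplasm, a log2 change of -3.06 ± 0.23. Mouse Ndufs5 had 32 counts in P-body replicate 1 and 53 in cytoplasm replicate 1 but 0 in both libraries numbered 2, so its level there was under the floor of 3 counts and its ratio was not read.

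Complex III passes electrons from ubiquinol to cytochrome c. In HEK293T 9 of its 10 members were depleted and 0 enriched (median -1.37), in mESC 5 of 8 were depleted and 0 enriched (median -0.49), in neurons 3 were depleted and 1 enriched (median -0.60), and in liver bud progenitors 6 were enriched and 0 depleted (median 0.70). The large core proteins UQCRC1 and UQCRC2 were both depleted in HEK293T, with a median of -0.66. UQCRC2 had 56.2 and 52.6 CPM in HEK293T P-bodies and 78.5 and 84.5 in cytoplasm (-0.58 ± 0.09), and UQCRC1 had 31.7 and 24.5 against 44.3 and 49.6 (-0.74 ± 0.12). The 5 small subunits were all depleted there, with a median of -1.85, a gap to the core proteins that was not tested, and 4 of the 5 were enriched in liver bud progenitors, with a median of 0.96. UQCRFS1, the Rieske iron-sulphur protein, was depleted in HEK293T (-1.17), enriched in liver bud progenitors (0.90) and called in neither neurons (0.05) nor mESC (-0.43). The liver bud call of UQCRC2 (0.33 ± 0.13) and its neuron call (-0.60 ± 0.20) were each lost under several settings.

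UQCRB, a small subunit next to the ubiquinone site, was enriched in neuron P-bodies while depleted in HEK293T. It had 41.7 and 56.1 CPM in neuron P-bodies and 26.4 and 32.7 in cytoplasm, which is an enrichment of 0.73 ± 0.19 (edgeR adjusted p = 0.0131). In HEK293T it had 44.2 and 43.8 CPM in P-bodies and 82.7 and 77.8 in cytoplasm, a change of -0.87 ± 0.09 (edgeR adjusted p = 9.96e-13). Liver bud P-bodies held 44.7 and 43.1 and cytoplasm 28.3 and 29.2 (0.61 ± 0.12, edgeR adjusted p = 1.93e-05). In mESC the fractions overlapped, at 53.5 and 75.3 CPM in P-bodies and 64.0 and 63.3 in cytoplasm (0.01 ± 0.11, edgeR adjusted p = 0.929). UQCRB has a pseudogene copy in the human table, UQCRBP1, and UQCRH has a near copy, UQCRHL, so the division of reads within these pairs is uncertain. UQCRBP1 had at most 34 counts in any library.

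Complex IV, cytochrome c oxidase, reduces oxygen. In HEK293T 10 of its 12 members were depleted and 0 enriched (median -1.32), in mESC 9 of 13 were depleted and 0 enriched (median -0.64), in neurons 4 were depleted and 0 enriched (median -0.71), and in liver bud progenitors 7 were enriched and 0 depleted (median 0.71). COX7C, a small membrane subunit, had 34.8 and 37.0 CPM in HEK293T P-bodies and 138 and 146 in cytoplasm, and 63.6 and 62.2 in liver bud P-bodies and 27.2 and 25.7 in cytoplasm. Its log2 change was -1.98 ± 0.08 in HEK293T and 1.25 ± 0.11 in liver bud progenitors (edgeR adjusted p = 1.35e-29 and 2.51e-15). COX5B was similar, with -1.45 ± 0.11 in HEK293T and 1.37 ± 0.15 in liver bud progenitors, where its P-body libraries held 35.0 and 33.4 CPM and its cytoplasm libraries 12.97 and 13.4. COX4I1, the largest nuclear-encoded subunit, was depleted in HEK293T (-1.66), neurons (-0.73) and mESC (-0.72) and enriched in liver bud progenitors (0.78). COX7A2L, which joins complexes III and IV into supercomplexes, followed with -0.60 in HEK293T, -0.86 in neurons and 0.82 in liver bud progenitors, each called, and -0.33 in mESC, not called. The neuron call was lost in 4 settings and the HEK293T call in 2. COX7B was the lowest complex IV member in HEK293T, with 6.17 and 9.0 CPM in P-bodies and 37.4 and 35.6 in cytoplasm (-2.25 ± 0.15).

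COX6A1, a regulatory subunit, was not called in HEK293T, with 55.1 and 57.8 CPM in P-bodies and 60.7 and 62.6 in cytoplasm (-0.13 ± 0.09, edgeR adjusted p = 0.296). Liver bud P-bodies had 20.2 and 18.8 CPM against 19.2 and 21.2, which overlapped (-0.05 ± 0.16, edgeR adjusted p = 0.838). In neurons it had 11.3 and 16.6 CPM in P-bodies and 25.2 and 23.8 in cytoplasm, a depletion of 0.81 on the log2 scale (edgeR adjusted p = 0.03). Only its neuron fractions were called apart, and that call was lost in 5 of the settings tried, DESeq2 and library size scaling among them and without either neuron cytoplasm library. The isoforms COX4I2, COX6A2 and COX7A1 were not analysed here in human cells, and COX6B2, another tissue-restricted isoform, had at most 10 counts in any human library.

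Complex V makes ATP. In HEK293T all 18 members were depleted (median -1.46), in mESC 15 of 17 were depleted and 0 enriched (median -0.73), in neurons 7 were depleted and 0 enriched (median -0.63), and in liver bud progenitors 12 were enriched and 0 depleted (median 0.81). The catalytic head is built from ATP5F1A and ATP5F1B. The latter had 186 and 193 CPM in liver bud P-bodies and 176 and 166 in cytoplasm (0.15 ± 0.07, edgeR adjusted p = 0.0813), and 140 and 140 in HEK293T P-bodies against 375 and 365 (-1.40 ± 0.06). In neurons it had 94.9 and 117 CPM against 193 and 192 (-0.86 ± 0.12), and mouse Atp5b had 330 and 336 against 475 and 468 (-0.50 ± 0.04). ATP5F1B was thus lower in P-bodies without overlap in 3 cell types and slightly higher, without a call, in liver bud progenitors. ATP5F1A was called everywhere, at -1.48 in HEK293T, -0.90 in neurons, -0.36 in mESC and 0.58 in liver bud progenitors. ATP5F1C, the gamma subunit of the central stalk, was depleted in HEK293T (-0.94) and neurons (-0.78) and enriched in liver bud progenitors (0.97).

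The small membrane subunits around the c ring were the most depleted group of complex V in HEK293T, with 5 of 5 depleted and a median of -2.10. ATP5MD, now named ATP5MK, had 10.6 and 11.8 CPM in HEK293T P-bodies and 74.7 and 71.8 in cytoplasm, a log2 change of -2.70 ± 0.12 and a ratio of 0.153. ATP5MPL, now named ATP5MJ, had 11.9 and 12.7 against 63.6 and 57.5 (-2.30 ± 0.12). Of the same 5 subunits 4 were enriched in liver bud progenitors (median 0.94), 0 were called in neurons (median -0.68) and 5 were depleted in mESC (median -0.89). ATP5IF1, the inhibitor that blocks ATP hydrolysis, was depleted in HEK293T (-1.40) and neurons (-0.72) and not called in liver bud progenitors (0.13).

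The 3 c-ring genes, whose last coding exons are printed above, differed in level and in the size of the change. ATP5MC3 had 26.4 and 28.0 CPM in HEK293T P-bodies and 152 and 145 in cytoplasm, and its log2 ratio was -2.44 ± 0.09 (edgeR adjusted p = 3.75e-33). Liver bud libraries had 92.0 and 91.2 CPM in P-bodies and 42.0 and 39.1 in cytoplasm, a change of 1.18 ± 0.10 (edgeR adjusted p = 3.67e-17). In neurons it had 6.95 and 8.80 CPM in P-bodies and 23.3 and 23.9 in cytoplasm, a change of -1.58 ± 0.27 (edgeR adjusted p = 0.000567). Each cell type gave fractions without overlap, with P-bodies low in HEK293T and neurons and high in liver bud progenitors. Mouse Atp5g3 had 40.3 and 34.2 against 77.2 and 76.6 (-1.04 ± 0.09, edgeR adjusted p = 3.64e-10).

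ATP5MC1 had the largest enrichment among the liver bud members of at least 20 CPM that the naming rule took, with 51.6 and 46.8 CPM in P-bodies and 15.1 and 16.1 in cytoplasm (1.66 ± 0.14, edgeR adjusted p = 3.86e-17). In HEK293T it had 21.9 and 25.1 CPM in P-bodies and 68.2 and 76.5 in cytoplasm (-1.62 ± 0.10, edgeR adjusted p = 9.54e-21). In neurons it had 7.17 and 10.8 CPM against 13.6 and 14.3 (-0.63 ± 0.31, edgeR adjusted p = 0.155), lower in both P-body libraries but not called. Mouse Atp5g1 overlapped, at 26.0 and 40.6 CPM in P-bodies and 30.5 and 28.8 in cytoplasm (0.16 ± 0.15, edgeR adjusted p = 0.384). ATP5MC2 had the smallest range of the 3. Its log2 change was -1.44 in HEK293T (42.0 and 48.5 CPM against 120 and 125), 0.74 in liver bud progenitors (61.7 and 50.2 against 31.9 and 35.0) and -0.47 in neurons (59.9 and 66.6 against 82.7 and 92.7), each called, and -0.34 for mouse Atp5g2 (53.8 and 58.1 against 74.1 and 67.7). Per kilobase of transcript, ATP5MC2 was the highest c-ring gene in cytoplasm of all 3 human cell types. It had 194 CPM per kb in HEK293T, 53.0 in liver bud progenitors and 139 in neurons. ATP5MC3 had 57.2, 15.7 and 9.13, over an annotated transcript (2587 bases) that may not be the one made. In plain CPM ATP5MC3 was above ATP5MC2 in HEK293T and liver bud cytoplasm, so the order per kilobase there rests on the annotated lengths.

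**Figure D3:**
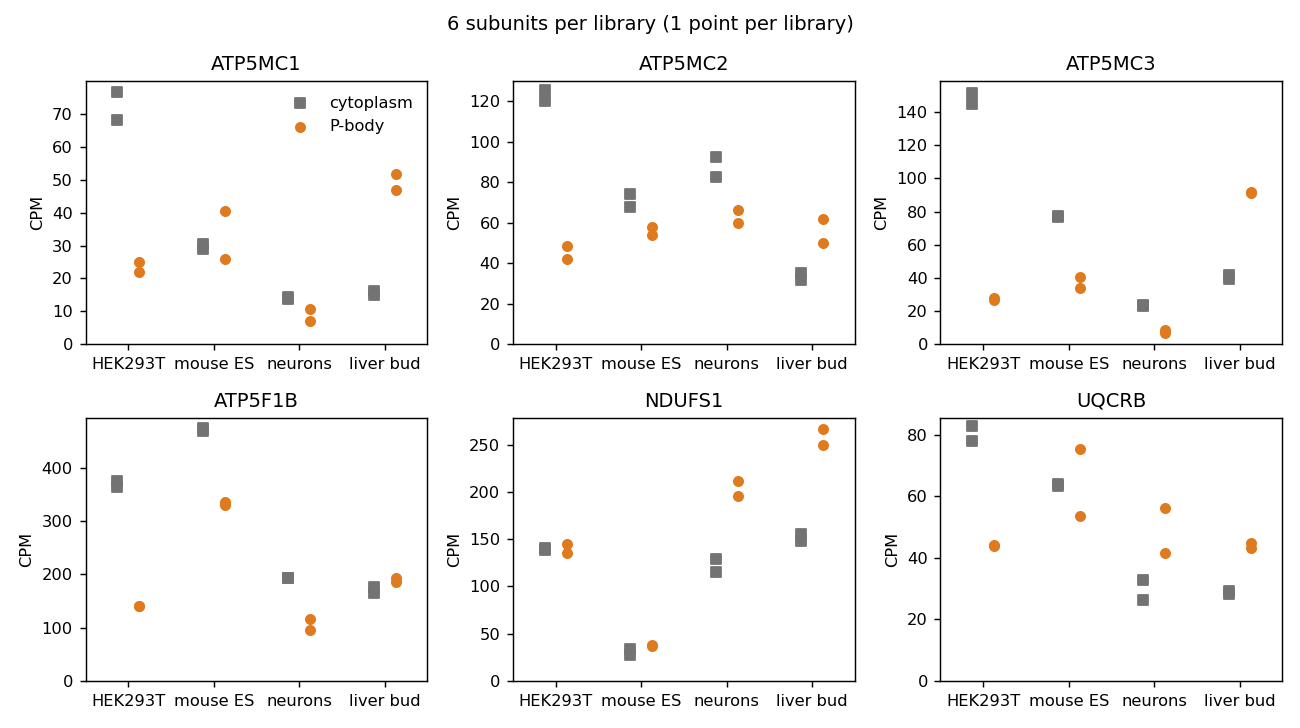
CPM in each library (1 point per library) of 6 subunits, with cytoplasm as grey squares and P-bodies as orange circles, in HEK293T, mouse ES cells, neurons and liver bud progenitors. ATP5MC3 values in P-bodies were below those in cytoplasm in HEK293T (26.4 and 28.0 CPM in P-bodies) and above them in liver bud progenitors (92.0 and 91.2 CPM). NDUFS1 was higher in P-bodies in neurons and liver bud progenitors. Each cell type was scaled in its own fit.

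Neurons and liver bud progenitors came from the same ES line and the same kind of library, so their P-body ratios were tested against each other as an interaction over 8 libraries. Of 77 subunits 37 had a lower ratio in neurons and 0 a higher one (edgeR, adjusted p under 0.05), beside 8.5% of all genes lower and 9.21% higher. The median difference of the members was -1.12, and that of all genes 0.23. Among the lower ones were 13 of 37 complex I members, 4 of 10 of complex III, 7 of 12 of complex IV and 13 of 18 of complex V. With library size scaling the count was 25 lower and 1 higher. The median of all genes was then 0.58, and 78.9% of all genes called were higher in neurons. Leaving out neuron P-body replicate 2 raised it to 56 lower, and leaving out liver bud P-body replicate 1 reduced it to 24.

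ATP5MC3 and ATP5F1C had the smallest p. The ATP5MC3 ratio was lower in neurons by -2.76 ± 0.21 on the log2 scale (approximate 95% interval -3.18 to -2.34, edgeR adjusted p = 4.85e-07). The ATP5F1C ratio differed by -1.75 ± 0.18 (edgeR adjusted p = 6.14e-06). ATP5MC1 differed by -2.30 ± 0.30 and ATP5MC2 by -1.22 ± 0.18, both called. NDUFS1, enriched in both cell types, differed by -0.04 ± 0.13 (interval -0.29 to 0.21, edgeR adjusted p = 0.884), and UQCRB by 0.11 ± 0.23 (interval -0.35 to 0.56, edgeR adjusted p = 0.80). For these 2 genes no difference was detectable, within the approximate intervals given, which may be too narrow.

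The cytoplasm libraries of the same cells were compared directly, because a ratio can move with either fraction. Of 77 subunits 36 were higher in neuron cytoplasm and 7 lower, beside 26.0% and 25.8% of all genes, with a median of 0.41 against -0.16 over all genes. DESeq2 called 15 higher, and library size scaling gave 13 higher and 12 lower. ATP5MC2 had 89.3 and 100.04 CPM in neuron cytoplasm and 29.7 and 32.8 in liver bud cytoplasm, a log2 difference of 1.596 ± 0.12 (edgeR adjusted p = 3.9e-20). NDUFB8 was also higher, with 51.0 and 48.7 CPM against 22.5 and 22.1 (1.16 ± 0.14). ATP5MC3 went the other way, with 25.2 and 25.8 CPM in neuron cytoplasm and 39.2 and 36.5 in liver bud cytoplasm (-0.57 ± 0.15, edgeR adjusted p = 0.000597), as did ATP5F1C (-0.64 ± 0.12) and, at few counts, the pseudogene UQCRBP1 (-3.70). ATP5MC1 was nearly level, at 14.7 and 15.4 against 14.1 and 15.0 (0.05 ± 0.20, edgeR adjusted p = 0.859). Cytoplasm values of ATP5MC1 were thus close in liver bud progenitors and neurons while the P-body values were 51.6 and 46.8 CPM against 7.17 and 10.8 CPM, each scaled within its own comparison.

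HEK293T was also tested against the other human cells, where library kind and cell type cannot be told apart. These comparisons share the HEK293T libraries, and they share their neuron and liver bud libraries with the interaction test of those 2 cell types above. The ratio of 66 subunits was higher in liver bud progenitors than in HEK293T and that of 0 lower, beside 12.5% and 15.0% of all genes, with a median of 1.69 against -0.21. The ATP5MC3 ratio differed by 3.39 ± 0.13 and that of COX7C by 3.01 ± 0.14 (edgeR adjusted p = 3.96e-26 and 3.11e-23), while COX6A1 differed by -0.16 ± 0.17, with an interval of -0.49 to 0.17. Between neurons and HEK293T 25 subunits were higher in neurons and 1 was lower, beside 6.35% and 6.19% of all genes, with a median of 0.66 against 0.16. With library size scaling the medians were 1.098 and 0.59, and 88.2% of all genes called were higher in neurons. UQCRB differed by 1.46 ± 0.22 and ATP5PF, a peripheral stalk subunit, by 1.65 ± 0.29 (edgeR adjusted p = 0.000292 and 0.000982). ATP5PF had 21.0 and 36.5 CPM in neuron P-bodies against 15.8 and 19.9 in cytoplasm, and 41.2 and 39.6 in HEK293T P-bodies against 81.9 and 90.7. The single lower gene was COX6A1, at -0.82 ± 0.24 (edgeR adjusted p = 0.0313), a call lost in 8 settings, without any of the 4 HEK293T libraries or either neuron cytoplasm library among them. Library size scaling gave 44 higher and 0 lower here, DESeq2 24 and 2, and the counts fell to between 10 and 14 when any HEK293T library or neuron cytoplasm replicate 1 was left out.

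Across members, the log2 changes of HEK293T and mESC had a Spearman rho of 0.515 (73 genes matched by symbol or current name), those of HEK293T and neurons 0.416 (77 genes), and those of neurons and mESC 0.222 (73 genes). HEK293T and liver bud progenitors had a rho of -0.335, neurons and liver bud progenitors -0.0914, and mESC and liver bud progenitors -0.233. The members thus had the nearest order of values in HEK293T and mESC, and a reversed, weaker order in HEK293T and liver bud progenitors. The points of each pair share genes of like length and base composition, and HEK293T and mESC share the library kind.

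**Figure D4:**
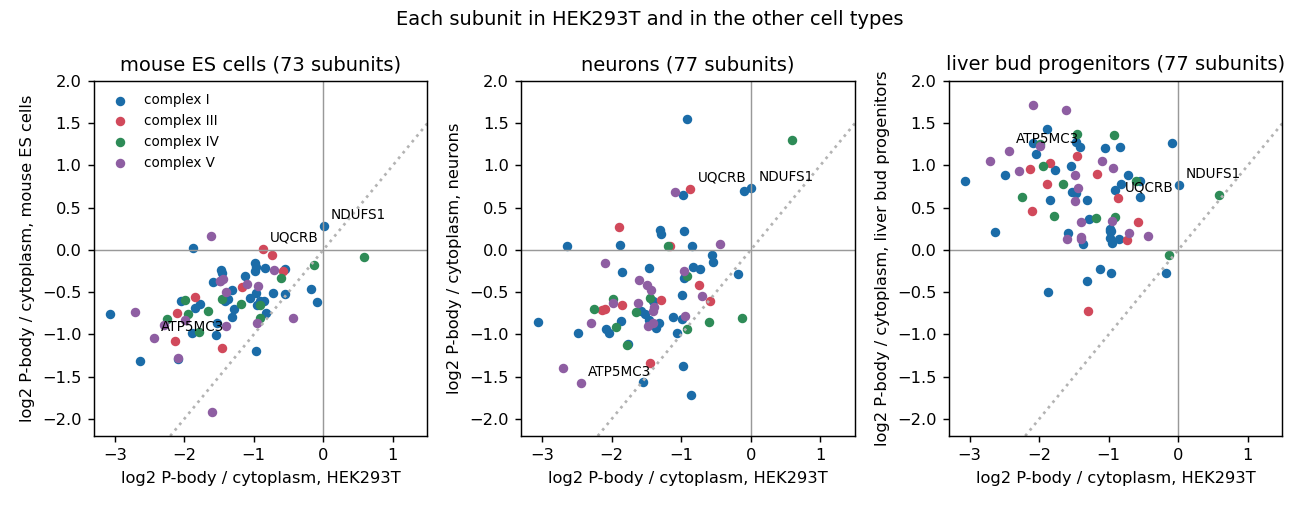
Log2 of P-body over cytoplasm of each subunit in HEK293T (horizontal axis) against mESC, neurons and liver bud progenitors (vertical axes), with 1 point per gene. In the liver bud panel most points lie left of 0 on the horizontal axis and above 0 on the vertical one.

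The members had short transcripts, and the human ones had a GC content near the median of all genes. The annotated transcript used for each human member had a median of 750 bases (76 of 77 with a value). Genes of at least 1 CPM had medians of 3612 to 3683 bases in the 3 human cell types. The mouse members had a median of 765 against 3261 bases. The human members' median GC was 47.4%, against 47.2% to 48.0% over all genes. Over all genes the log2 change fell with GC content in each cell type, with a rho of -0.569 in HEK293T, -0.611 in mESC, -0.546 in neurons and -0.631 in liver bud progenitors. Among the members it was 0.186, 0.0902, -0.149 and -0.320 in the same order. Coding length among the members had a rho of 0.379 in HEK293T, 0.512 in mESC, 0.0861 in neurons and -0.333 in liver bud progenitors. These values cover 72 to 75 genes. Over all genes the rho for coding length was 0.227, 0.0537, 0.0828 and -0.27 in the same order, with the same signs. For whole transcript length the members had 0.0935, 0.441, 0.112 and -0.168, and all genes 0.335, 0.159, 0.188 and -0.0997. For the length of the 3′ untranslated region the members had -0.0375, 0.147, 0.143 and 0.049, and all genes 0.316, 0.225, 0.211 and 0.0907.

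Other genes with short transcripts had medians of the same sign as the members. This description was added after the data were seen. Among genes with transcripts under 1000 bases and at least 1 CPM that were neither members nor ribosomal protein genes, 344 of 439 were depleted and 18 enriched in HEK293T, with a median of -1.10, beside 44 of 45 members depleted, with a median of -1.39. Of 479 such genes 202 were enriched and 24 depleted in liver bud progenitors (median 0.48), beside 25 of 44 members enriched (median 0.72). Over coding genes of any length and at least 1 CPM, 4578 of 11799 were depleted in HEK293T (median -0.12) and 4471 of 13093 enriched in liver bud progenitors (median 0.08). In neurons the medians were -0.51 for the other short genes and -0.63 for the members, and in mESC -0.27 and -0.66. The part of transcript length in the members' values was not tested beyond these counts.

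Other mitochondrial and short-transcript gene groups were counted in the same fits. The 4 subunits of complex II, the succinate dehydrogenase that is wholly nuclear-encoded, were all depleted in HEK293T (median -1.28) and in mESC (median -0.69), and 2 were depleted in neurons. In liver bud progenitors SDHB (0.97), SDHC (0.40) and SDHD (0.68) were enriched, while SDHA, its flavoprotein, was depleted, with 15.6 and 14.0 CPM in P-bodies and 23.7 and 23.3 in cytoplasm (-0.67 ± 0.16). NDUFAB1, CYC1 and CYCS, which encode the complex I acyl carrier, cytochrome c1 and cytochrome c and lie outside the symbol rule, were depleted in HEK293T (-2.71, -1.66 and -0.50) and enriched in liver bud progenitors (1.27, 0.50 and 1.14), and none was called in neurons.

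Factors that assemble the complexes had medians nearer to 0 than the subunits, a gap that was not tested. Of 16 complex I assembly factors 12 were depleted and 1 enriched in HEK293T (median -0.88), beside 22.8% and 19.3% of all genes. In liver bud progenitors 4 were enriched and 2 depleted, near the 21.4% and 17.1% of all genes. Their median there was 0.16 and changed sign to -0.03 with library size scaling. NDUFAF4, an assembly factor, was enriched in HEK293T (54.6 and 50.5 CPM against 33.9 and 31.1, log2 change 0.69 ± 0.11) and in liver bud progenitors (27.7 and 27.9 against 10.4 and 8.60, 1.55 ± 0.18). Of 21 complex IV assembly factors 16 were depleted and 1 enriched in HEK293T. In liver bud progenitors 6 were enriched and 2 depleted, not far from the same shares of all genes. LRPPRC, which binds mitochondrial mRNAs, was enriched in both cell types made from UCLA4, by 0.67 ± 0.15 in neurons and 0.64 ± 0.08 in liver bud progenitors. It was depleted in HEK293T (-0.48). Complex III and complex V assembly, with 6 and 5 genes, had 4 depleted each in HEK293T and 1 and 2 enriched in liver bud progenitors. These sets are too small to set beside those shares.

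The 13 citric acid cycle genes were split in liver bud progenitors, with 5 enriched and 4 depleted, where the subunits had 45 and 0, and were mostly depleted in HEK293T (10 depleted, 2 enriched) and neurons (6 depleted, 2 enriched). OGDH, a dehydrogenase of the cycle, was depleted in all 3 human cell types, with 85.6 and 85.3 CPM in liver bud P-bodies and 168 and 162 in cytoplasm (-0.95 ± 0.08), a change of -1.06 in HEK293T and of -1.02 in neurons. Regulators of mitochondrial biogenesis had 6 of 12 members enriched and 4 depleted in HEK293T, with a median of 0.26. The set was mixed elsewhere too, with 5 enriched and 3 depleted in liver bud progenitors, 3 and 1 in neurons and 8 and 1 in mESC. GABPA, a transcription factor of respiratory genes, was enriched in every cell type. It had 307 and 311 CPM in HEK293T P-bodies against 168 and 159 in cytoplasm (0.92 ± 0.06), and 72.7 and 69.8 in neuron P-bodies against 17.6 and 19.8 (1.93 ± 0.16), with 1.53 in liver bud progenitors and 1.21 in mESC. TFAM, which packages and transcribes mitochondrial DNA, was enriched as well, by 0.38 in HEK293T, 0.48 in mESC, 1.21 in neurons and 1.43 in liver bud progenitors.

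Ribosomal protein genes, also short and abundant, likewise had their lowest median in HEK293T and their highest in liver bud progenitors. Of the cytosolic ones 79 of 83 were depleted in HEK293T (median -1.62) and 72 enriched in liver bud progenitors (median 0.94), with 37 depleted in neurons (median -0.44) and 72 depleted in mESC (median -0.65). Of 77 mitochondrial ribosomal protein genes 62 were depleted in HEK293T (median -0.93) and 39 enriched in liver bud progenitors (median 0.66), while in mESC 18 were depleted and 8 enriched, and in neurons 9 were depleted and 1 enriched, shares depleted that are near those of all genes. The MTRNR2L genes, nuclear copies of a mitochondrial ribosomal RNA segment, showed depletion in each human cell type, with 6 of 10 depleted in HEK293T and also in liver bud progenitors, 4 in neurons, and none enriched. Whether these groups share a source of change with the subunits was not tested.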

How the data were processed

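The deposited values were whole-number read counts per gene symbol that the authors made against hg38 or mm10 with refGene annotation, by an nf-core and salmon pipeline for snapTotal-seq and with hisat2 and featureCounts for Smart-seq. No label names the pipeline of a column, and salmon divides reads of near copies. The authors' tables of DESeq2 fold changes and p-values were not used.

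Groups came from the labels. Fractions were compared on the 4 libraries of a cell type by edgeR 4.0.16 (quasi-likelihood, R 4.3.3) under TMM scaling, no covariate, genes at 0 in all libraries left out, two-sided, Benjamini-Hochberg adjustment over all genes tested and 0.05 as threshold. Differences in ratio were interactions over 8 libraries. SE is the absolute log2 change divided by the square root of F. Alternatives were DESeq2 1.42.0, RLE, library size only, filterByExpr, no ribosomal RNA genes, the replicate number as a block, all 12 human libraries in 1 fit, and leaving out each library. The fits were also run on counts simulated with the dispersions estimated from these libraries. Such a run cannot show whether the spread between 2 libraries is technical. Lengths, GC content and exons came from a single annotated transcript per gene. In human (GENCODE 44) this was the MANE Select transcript or else the Ensembl canonical one. In mouse (M21) it was the APPRIS principal transcript or else another coding one. Length decided only between transcripts of equal rank.

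Named were the 4 highest and 4 lowest called members of at least 20 CPM without overlap per cell type, the 2 with the smallest p in each direction of a difference, a list of 22 textbook subunits, and up to 4 per gene list. The members, lists and rules were chosen with earlier results of these data known.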

Additional observations from a re-analysis of the deposited data

Results flagged for a closer look

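Differences in P-body ratio between cell types passed the interaction test. Between neurons and liver bud progenitors 37 subunits were lower in neurons, led by ATP5MC3 (log2 difference -2.76) and ATP5F1C (-1.75). Between neurons and HEK293T 25 subunits were higher in neurons, led by UQCRB (1.46) and ATP5PF (1.65), and 1, COX6A1 (-0.82), was lower, a call lost in 8 settings. Between liver bud progenitors and HEK293T 66 were higher, led by ATP5MC3 (3.39) and COX7C (3.01). In comparisons with HEK293T, library kind and cell type cannot be told apart. Ribosomal RNA shares, which differ between fractions in each cell type, also differ between the cell types, and their part in these differences was not tested.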

How the results depend on the processing

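Library size scaling moved the median of all genes from -0.01 to -0.13 in HEK293T, -0.09 to -0.28 in liver bud progenitors, 0.19 to 0.35 in neurons and -0.11 to -0.51 in mESC, while the members' median minus that of all genes stayed at -1.39, 0.78, -0.80 or -0.81, and -0.49. With it the members' median was -1.52 in HEK293T, 0.50 in liver bud progenitors and -1.004 in mESC, and the median difference was -0.75 between neurons and liver bud progenitors, 1.098 between neurons and HEK293T, 1.86 between liver bud progenitors and HEK293T and 0.030 in the cytoplasm. It gave 2 depleted members in liver bud progenitors, 10 in neurons and 0 enriched in mESC, 1 higher between neurons and liver bud progenitors, 44 higher and 0 lower between neurons and HEK293T, and 13 higher and 12 lower in the cytoplasm, and it reversed Ndufs1 (-0.12, adjusted p = 0.376) and Uqcrb (-0.39, adjusted p = 0.0019) in mESC. The median of all genes under that scaling was 0.58 between neurons and liver bud progenitors and 0.59 between neurons and HEK293T. It was -0.05 between liver bud progenitors and HEK293T and -0.52 in the cytoplasm. The causes were not tested.

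The HEK293T median was -1.30 with DESeq2, -1.30 with RLE and -1.27 with 12 libraries in 1 fit. Liver bud progenitors had 1 depleted member with RLE, with filterByExpr, without ribosomal RNA genes and with the replicate block. Neurons had 10 depleted with DESeq2, and 43 depleted and 4 enriched in the fit of 12 libraries. In mESC 0 were enriched with DESeq2 and filterByExpr, and the filterByExpr median was -0.69. Between neurons and HEK293T 2 were lower with DESeq2, RLE, no ribosomal RNA genes or the replicate block, and 0 with filterByExpr. The liver bud to HEK293T median was 1.94 with filterByExpr, and DESeq2 called 15 higher in the cytoplasm.

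Leaving out each library gave 0 to 1 depleted in liver bud progenitors. In neurons it gave 1 to 5 enriched and 7 to 34 depleted. In mESC it gave 0 to 2 enriched, with a median of -0.63 to -0.53. Between neurons and liver bud progenitors it gave 0 to 1 higher and 24 to 56 lower, with a median of -1.37 to -1.05, between neurons and HEK293T 10 to 36 higher and 0 to 2 lower, and in the cytoplasm 21 to 36 higher. The remaining group of 1 library is then assumed to vary like the others.

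Same-numbered P-body and cytoplasm libraries deviated with correlations of -0.0276 to 0.0364, so the numbers were not shown to pair. The replicate block gave 28 depleted in neurons. The cytoplasm comparison was not fitted with it, because neurons and liver bud progenitors share only a number. HEK293T counts stayed between 61 and 73 depleted under every alternative run. Among named members, neuron calls were also lost in 3 settings for ATP5MC2, 2 for COX4I1 and 1 each for UQCRB and ATP5IF1, the liver bud call of NDUFA4 in 2 and the HEK293T call of NDUFB9 in 1. Counts of a few reads limit the ratios of members near the floor.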
